A study of Mus musculus with 8 samples.

Results

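The 10 genes described here carry the MHC class I route of antigen presentation in the mouse submandibular gland. They are the class I heavy chains H2-K1, H2-D1, H2-Q6, H2-Q7 and H2-T23, their partner chain B2m, the peptide transporter subunit Tap1, the immunoproteasome subunits Psmb8 and Psmb9, and the transactivator Nlrc5. They were taken by name, whatever their values, and all 10 were found among the 54838 genes of the count tables. RNA from submandibular glands of male mice was sequenced in 8 libraries, 4 from Dp16 mice and 4 from wild-type (WT) mice. Dp16 mice, bought as B6.129S7-Dp(16Lipi-Zbtb21)1Yey/J, carry an extra copy of the stretch of mouse chromosome 16 that runs from Lipi to Zbtb21, so that its genes are present in 3 copies in place of 2. They serve as a model of Down syndrome and cover many, but not all, of the genes shared with human chromosome 21. WT mice were C57BL/6J, and the labels give C57BL/6J as the strain of both genotypes. No treatment and no age is given in the labels. The title of the series names calcium, reduced salivation and the oral microbiota as its subject. The labels number the libraries 1 to 4 within a genotype and do not say that each came from a separate animal, so the p-values below measure the spread between libraries.

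Class I molecules display peptides from proteins made inside a cell to CD8 T cells and natural killer cells. Proteins are cut by the proteasome, the peptides are pumped into the endoplasmic reticulum by the transporter formed by Tap1 and Tap2, and they are loaded there onto a heavy chain held by beta-2 microglobulin. Almost all nucleated cells use this route, leukocytes strongly, and interferons raise most of its genes through transcription factors such as Irf1 and through Nlrc5. None of the 10 genes lies on chromosome 16, so none is in the duplicated segment.

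Of the 10 members, 8 lie in the H2 complex on chromosome 17. Class I heavy chain promoters are known for a shared row of short elements, so those letters are shown before the levels. RefSeq promoters (GRCm38.p6, 250 bases before to 50 after the start) were given for 9 of the 10 members, all except Nlrc5. The stretches below are written 5′ to 3′ on the strand of the gene, and capitals mark the letters found by the motif search. In order, the first is the kB site GGGATTCCC, which binds NF-kB, and the second is the interferon response element TTTCACTTC, which binds IRF factors. The site TGACG, which binds CREB and ATF factors, comes next. The Y box ATTGG, which binds NF-Y, comes last and can stand on either strand. In B2m the first capitals are another interferon response core, GAAANNGAA.
H2-K1, chr17:34000335-34000462, minus strand: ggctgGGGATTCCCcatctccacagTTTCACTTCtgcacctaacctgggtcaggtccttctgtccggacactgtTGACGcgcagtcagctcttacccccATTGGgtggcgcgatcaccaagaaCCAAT
H2-D1, chr17:35262919-35263045, plus strand: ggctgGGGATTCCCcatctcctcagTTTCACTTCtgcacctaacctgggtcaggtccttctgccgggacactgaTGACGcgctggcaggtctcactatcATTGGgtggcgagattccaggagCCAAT
H2-Q6, chr17:35424673-35424799, plus strand: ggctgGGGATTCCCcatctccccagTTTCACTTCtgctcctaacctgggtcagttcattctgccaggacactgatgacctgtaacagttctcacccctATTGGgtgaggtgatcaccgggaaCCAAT
H2-Q7, chr17:35439018-35439143, plus strand: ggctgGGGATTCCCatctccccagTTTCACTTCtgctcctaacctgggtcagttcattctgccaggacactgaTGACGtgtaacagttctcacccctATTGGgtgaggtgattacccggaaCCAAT
B2m, chr2:122147543-122147638, plus strand: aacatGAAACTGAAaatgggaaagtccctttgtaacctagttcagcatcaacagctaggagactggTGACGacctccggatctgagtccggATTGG

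The stretches of H2-K1, H2-D1 and H2-Q7 hold all of these elements in the same order, and that of H2-Q6 lacks TGACG. H2-Q6 and H2-Q7 were identical at 96.9% of aligned positions, and the other 5 pairs at 82.8% to 87.5%. Both strands of all 32851 promoters were searched for each motif. GGGATTCCC was found in 0.353% of all promoters and in those of H2-K1, H2-D1, H2-Q6 and H2-Q7. TTTCACTTC was found in the same 4 members and in 0.505% of all promoters. GAAANNGAA was found in H2-T23 and B2m and in 8.56% of all promoters. The short letters are common, with TGACG in 6 of the 9 members and 20.8% of all promoters, and ATTGG in 8 of the 9 and 37.4% of all. TTCNNNGAA, the gamma interferon activation site, was found in Psmb8 alone and in 8.30% of all promoters. The starts of Tap1 (34187556, plus strand) and Psmb9 (34187330, minus strand) lie 225 bases apart and face away from each other, so the pair share 1 short promoter region. No match overlapped another within the 5 stretches. These matches describe letters and show no binding in the gland. RefSeq starts can lie inside the gene as drawn by GENCODE, as for H2-D1.

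The libraries held 90790542 to 115729892 reads in genes, with 25566 to 26709 genes counted. Acinar and duct markers identified the tissue: Mucl2, a secreted product of acinar cells, had 210317 to 285176 CPM in Dp16 and 234361 to 333956 CPM in WT, where CPM is the read count of a gene scaled to a common library size by TMM. Of 19358 genes tested with edgeR, 121 passed an adjusted p of 0.05, which is 0.625%, and such genes are named as called below. Most genes were centred near no difference, with a median log2 fold change (Dp16 over WT) of 0.01 over all genes tested.

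At the H2 complex itself, 3 libraries stood apart. H2-Ea-ps, the E alpha chain gene that is silent in C57BL/6 mice through a promoter deletion, had 2, 2, 1883 and 1925 reads in Dp16 libraries 1 to 4 and 0, 0, 0 and 1201 reads in WT libraries 1 to 4. So Dp16 libraries 3 and 4 and WT library 4 held many reads of a gene that the labelled strain does not transcribe, and the other 5 held almost none. H2-Ea-ps is a class II gene, and some class I genes followed the same 3 libraries. H2-Q1 had 0.0914, 0.121, 7.18 and 4.37 CPM in Dp16 against 0.0805, 0.104, 0.109 and 3.70 CPM in WT. H2-Q10 had 0.302, 0.477, 6.57 and 4.11 CPM in Dp16 against 0.312, 0.156, 0.297 and 3.06 CPM in WT. H2-K2 had 1.75, 1.38, 11.1 and 6.01 CPM in Dp16 against 0.967, 1.18, 1.18 and 4.84 CPM in WT. In each of these genes the 3 libraries exceeded the other 5 in both genotypes. The MHC haplotype of the animals is not given in the labels, and its part in the results below was not tested. Fold changes of the members, and the counts and medians of the gene lists, are therefore also given without these 3 libraries, which leaves 2 Dp16 and 3 WT libraries.

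**Figure D1:**
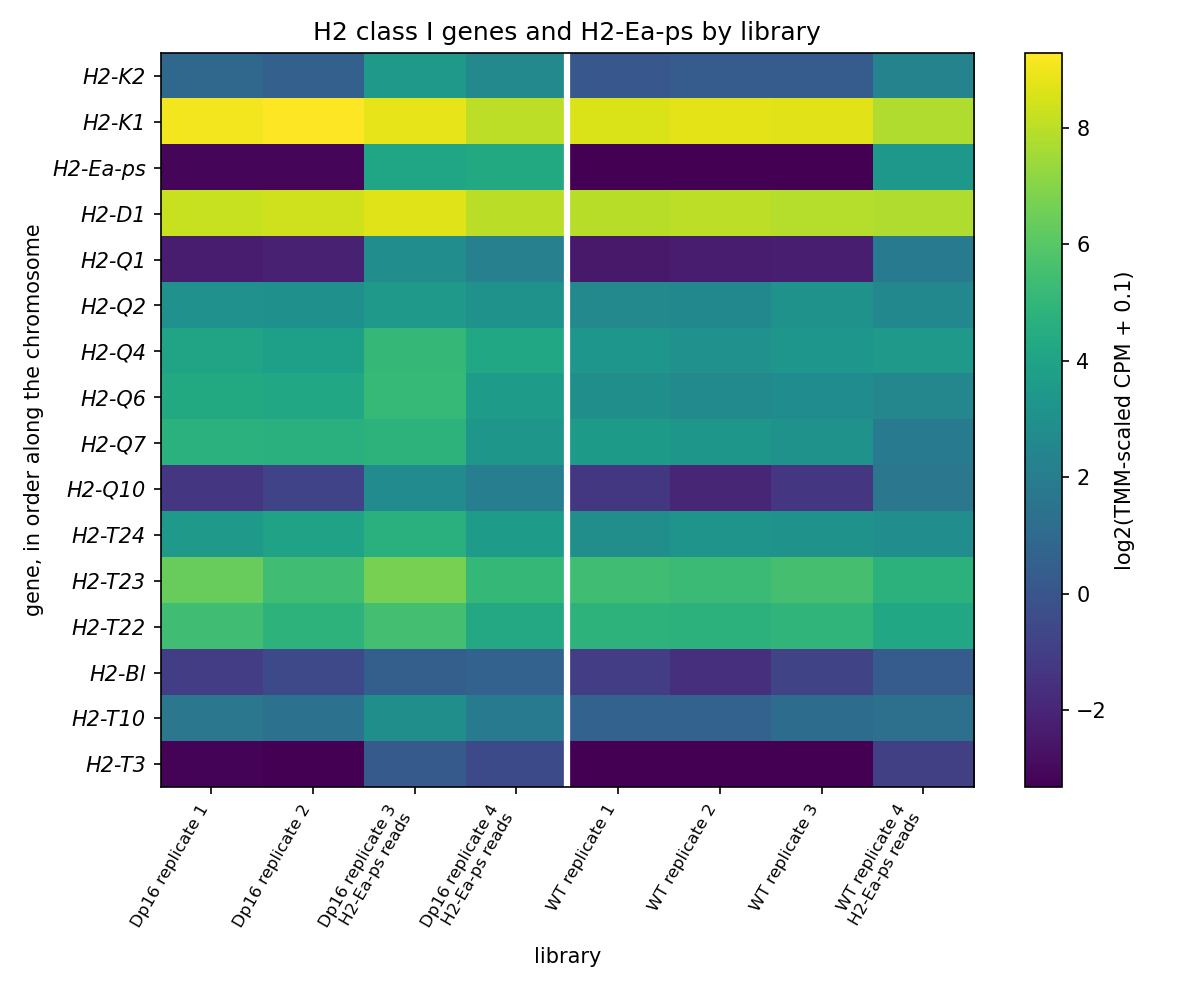
Level of H2 class I genes and H2-Ea-ps (rows, in order along chromosome 17) in each library (columns, Dp16 left of WT), as log2(TMM-scaled CPM + 0.1) by colour. At H2-Ea-ps, Dp16 libraries 3 and 4 and WT library 4 are at 17.5, 19.9 and 10.4 CPM. These 3 libraries exceed the other 5 within each of the rows H2-Ea-ps, H2-Q1, H2-Q10, H2-K2 and H2-T3. H2-T3 stays low even in these 3 libraries.

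All 10 members had a positive log2 fold change, against 51.1% of all genes tested, and their median was 0.78. One member was called, H2-Q6, where 0.47% of all genes were called higher in Dp16. At an unadjusted p below 0.05, 9 of 10 members were higher in Dp16, against 12.7% of all genes. Every Dp16 library exceeded every WT library in 4 members, H2-Q6, Tap1, Psmb9 and Nlrc5, against 7.11% of all genes. Members move together across libraries and are not independent of each other. DESeq2 called 6 members higher, H2-Q6, H2-Q7, B2m, Tap1, Psmb8 and Psmb9, against 5.69% of the genes to which it gave an adjusted p. Limma-voom called H2-Q6 alone among the members, against 1.28% of genes. Without the 3 libraries edgeR called no member (0.0% of genes), nor any gene in either direction. There, 8 members were at an unadjusted p below 0.05 against 7.19% of all genes, and the median log2 fold change was 0.52. With the presence of those reads as a covariate over 8 libraries, no member was called, against 0.031% of genes, and 9 were higher at an unadjusted p below 0.05, against 10.8%. The plot of fold changes sets both values of each member side by side.

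**Figure D2:**
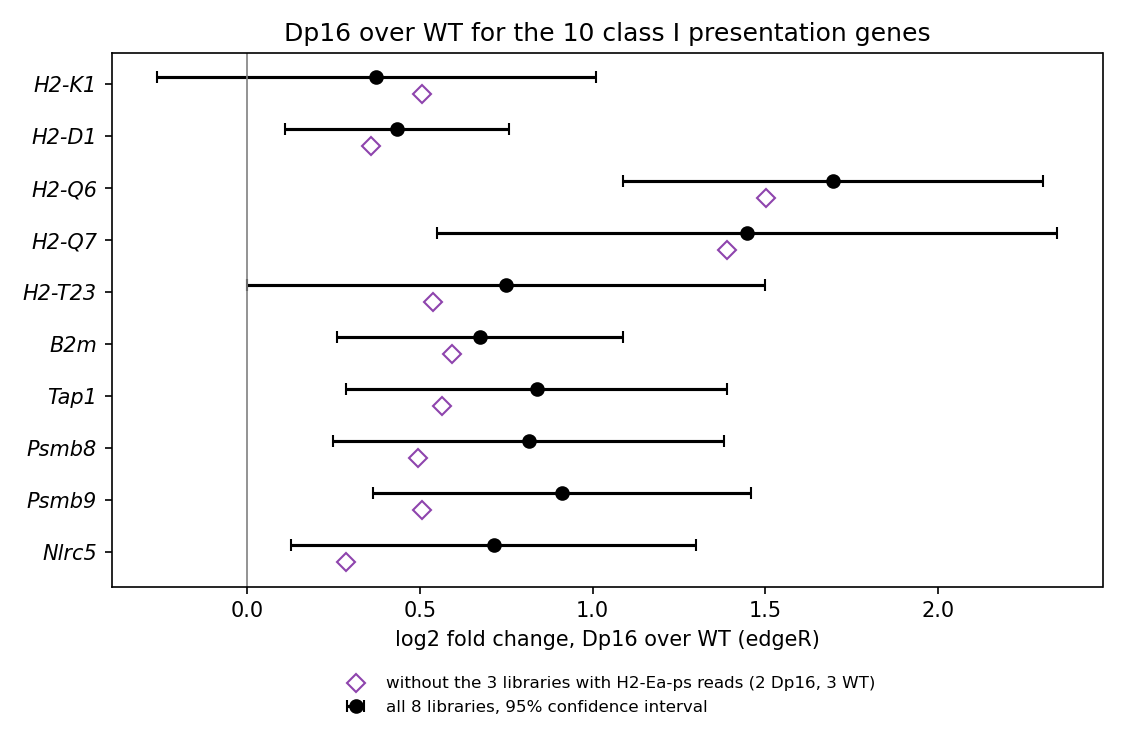
Log2 fold change of each member, Dp16 over WT (edgeR), with its 95% confidence interval over 8 libraries (black) and its value without the 3 libraries with H2-Ea-ps reads (purple diamonds). H2-Q6 (1.70) and H2-Q7 (1.45) lie farthest to the right, all values are above 0, and the interval of H2-K1 reaches below 0.

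H2-K1 and H2-D1 encode the classical class I chains K and D, which present most peptides to CD8 T cells. H2-K1 (ENSMUSG00000061232, chr17:33996017-34000347, minus strand) had 541, 623, 448 and 265 CPM in Dp16 libraries 1 to 4 against 383, 436, 414 and 216 CPM in WT libraries 1 to 4. Dp16 library 4 was below 3 of the WT libraries, so the groups overlapped. The log2 fold change of H2-K1 was 0.37 (SE 0.283, edgeR adjusted p = 0.431). Without the 3 libraries it was 0.51 (SE 0.138, adjusted p = 0.279). H2-D1 (ENSMUSG00000073411, chr17:35262730-35267499, plus strand) had 297, 330, 408 and 251 CPM in Dp16 against 241, 261, 233 and 217 CPM in WT. The groups overlapped only in that Dp16 library 4 was below WT library 2. Its log2 fold change was 0.43 (SE 0.144, edgeR adjusted p = 0.125). It was 0.36 without the 3 libraries (adjusted p = 0.346). Both classical chains had smaller fold changes than any other member over 8 libraries.

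H2-Q6 and H2-Q7 encode Qa-2 type chains, nonclassical class I molecules of the Q region that can be held on the membrane by a lipid anchor. H2-Q6 (ENSMUSG00000073409, chr17:35424850-35430055, plus strand) had 20.4, 19.03, 34.4 and 12.4 CPM in Dp16 against 7.69, 6.37, 6.86 and 5.66 CPM in WT. The lowest Dp16 library, number 4, was above the highest WT library, number 1. H2-Q6 averaged 21.5 ± 9.23 CPM in Dp16 and 6.65 ± 0.855 CPM in WT (SD, n = 4 each), a 3.24-fold difference that passed the test (log2 fold change 1.70, SE 0.27, edgeR adjusted p = 0.0388). This call was lost without Dp16 library 1 (edgeR adjusted p = 0.112) and without any 1 of WT libraries 1 to 4 (0.054, 0.125, 0.111 and 0.0982). It was also lost without the 3 libraries, where the log2 fold change was 1.504 (SE 0.123, adjusted p = 0.0801). No gene was called in that fit. The unadjusted edgeR p of H2-Q6 was 8.1e-06 there, against 0.000123 over 8 libraries.

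H2-Q7 (ENSMUSG00000060550, chr17:35439155-35443773, plus strand) had 26.3, 25.9, 28.8 and 10.13 CPM in Dp16 against 11.5, 10.07, 8.40 and 3.44 CPM in WT. In both genotypes library 4 was the lowest, and Dp16 library 4 was below WT library 1. The log2 fold change of H2-Q7 was 1.45 (SE 0.399, edgeR adjusted p = 0.0917). It was 1.39 without the 3 libraries (SE 0.148, adjusted p = 0.118). H2-Q6 and H2-Q7 are near copies, and a read that fits both is not counted for either. Of the 100-base substrings of their transcripts, 87.0% for H2-Q6 and 88.0% for H2-Q7 occur in no other gene. For H2-Q6 the main partner was H2-Q7, which holds 8.36% of its substrings, and for H2-Q7 it was H2-Q10 with 5.56%. The split of reads between them is therefore uncertain. With their counts added, the pair had 46.7, 44.9, 63.1 and 22.5 CPM in Dp16 against 19.2, 16.4, 15.3 and 9.10 CPM in WT. Every Dp16 library was above every WT library in this sum, which had a log2 fold change of 1.56 (SE 0.31, edgeR adjusted p = 0.0589). H2-Q1, H2-Q2, H2-Q4, H2-Q6, H2-Q7 and H2-Q10 added together averaged 79.6 ± 28.8 CPM in Dp16 and 33.3 ± 1.97 CPM in WT (SD, n = 4 each), with a log2 fold change of 1.26 (SE 0.208, edgeR adjusted p = 0.0424). Neither sum was called without the 3 libraries, with log2 fold changes of 1.44 for the pair (edgeR adjusted p = 0.0881) and 1.06 for all 6 (0.126). H2-Q1 and H2-Q10 in that sum are among the genes of the 3 libraries with H2-Ea-ps reads.

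H2-T23 encodes Qa-1, which presents leader peptides of other class I chains to the CD94 and NKG2 receptors of natural killer cells. H2-T23 (ENSMUSG00000067212, chr17:36029773-36032855, minus strand) had 80.5, 43.3, 104 and 33.9 CPM in Dp16 against 42.1, 38.7, 47.6 and 27.5 CPM in WT. Dp16 libraries 1 and 3 were above every WT library, and Dp16 libraries 2 and 4 lay among them. Its log2 fold change was 0.75 (SE 0.333, edgeR adjusted p = 0.203). It was 0.54 without the 3 libraries (adjusted p = 0.420). Over the other members that are heavy chains, unique substrings took 99.0% for H2-K1, 96.4% for H2-D1 and 96.8% for H2-T23.

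B2m encodes beta-2 microglobulin, the small chain that every classical and most nonclassical class I molecules need to reach the surface. B2m (ENSMUSG00000060802, chr2:122147686-122153083, plus strand) had 441, 510, 615 and 337 CPM in Dp16 against 316, 344, 288 and 244 CPM in WT. The groups overlapped by 1 pair, since Dp16 library 4 was below WT library 2. B2m averaged 476 ± 117 CPM in Dp16 and 298 ± 42.8 CPM in WT (SD, n = 4 each), with a log2 fold change of 0.67 (SE 0.184, edgeR adjusted p = 0.0909). Without the 3 libraries its log2 fold change was 0.59 (adjusted p = 0.257). B2m lies outside the H2 complex, on chromosome 2, and no 100-base substring of it occurs in another gene.

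**Figure D3:**
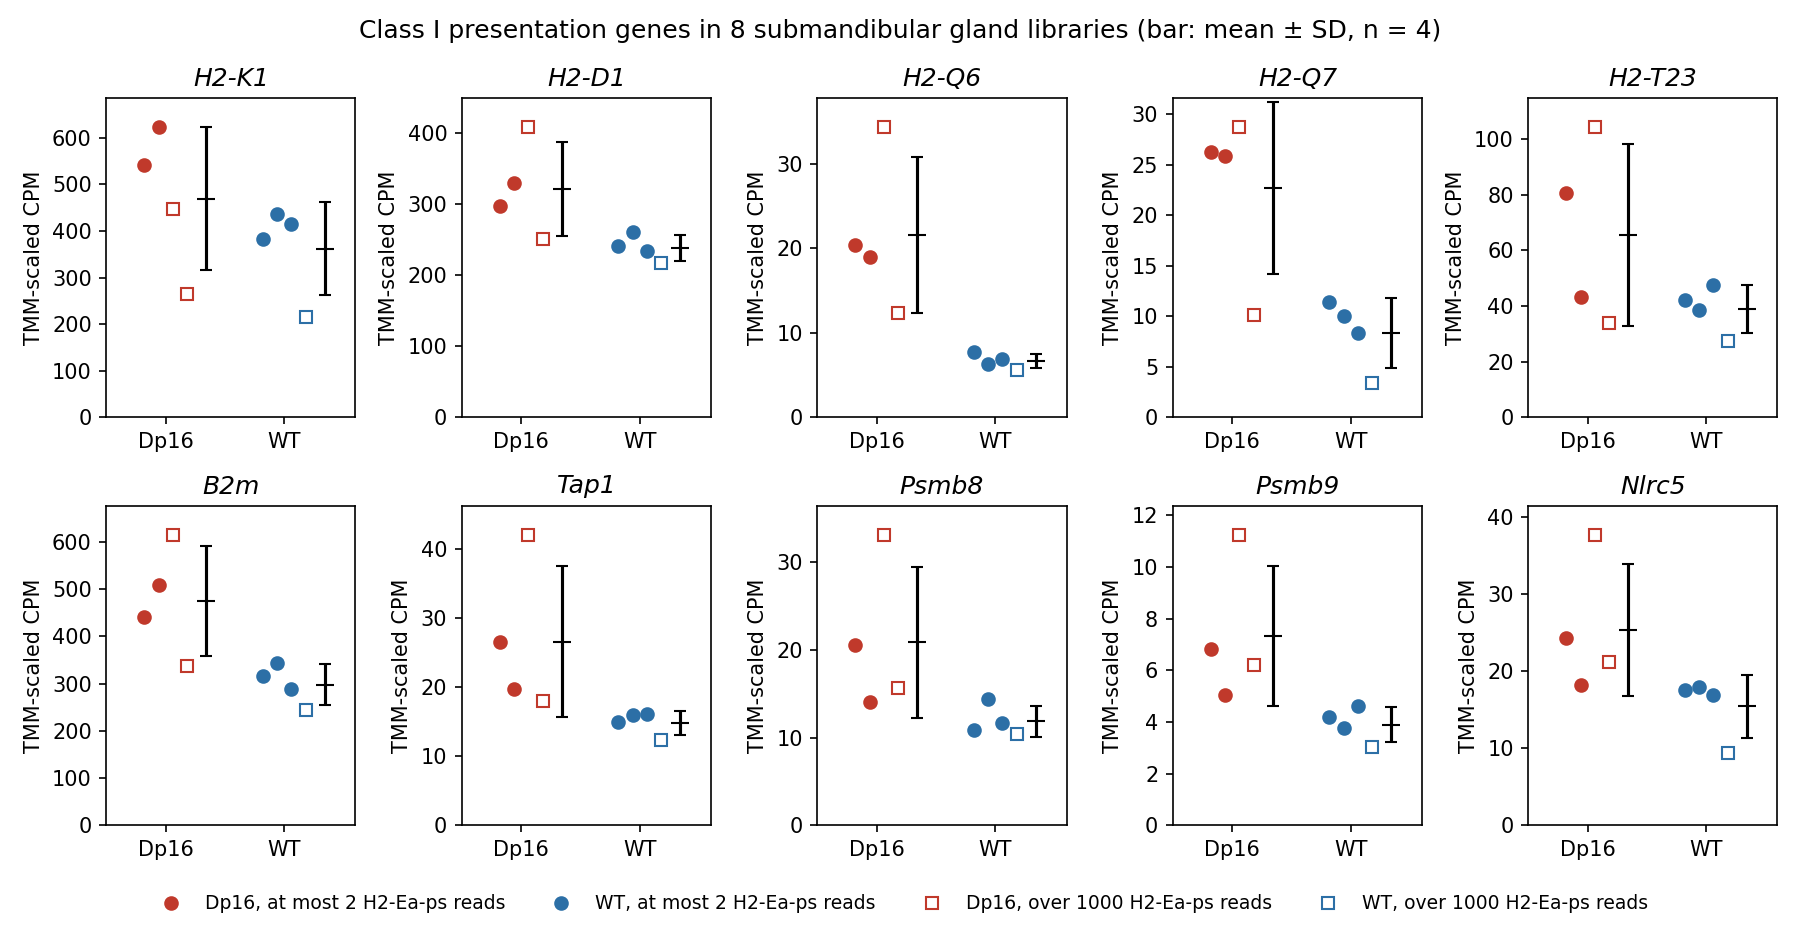
TMM-scaled CPM of each member in the 8 libraries (points; Dp16 red, left of WT, blue), with mean ± SD (n = 4). Open squares are the 3 libraries with H2-Ea-ps reads; Dp16 library 3 is the highest Dp16 point in 9 of 10 panels, and WT library 4 is the lowest WT point in all 10.

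Tap1 encodes 1 of the 2 subunits of the peptide transporter. Tap1 (ENSMUSG00000037321, chr17:34187553-34197225, plus strand) had 26.5, 19.7, 42.0 and 18.03 CPM in Dp16 against 14.96, 16.0, 16.1 and 12.4 CPM in WT. The groups did not overlap, and Dp16 library 3 stood well above the rest. Its log2 fold change was 0.84 (SE 0.246, edgeR adjusted p = 0.103). It was 0.56 without the 3 libraries (adjusted p = 0.270). Its partner Tap2 had 16.5, 15.5, 21.0 and 14.9 CPM in Dp16 against 12.2, 15.4, 12.98 and 12.8 CPM in WT, so the groups overlapped, with a log2 fold change of 0.35 (SE 0.126, edgeR adjusted p = 0.148), and 0.24 without the 3 libraries. Whether Tap1 and Tap2 differ in their fold change was not tested.

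Psmb8 and Psmb9 encode LMP7 and LMP2, the subunits that replace Psmb5 and Psmb6 in the immunoproteasome and shift its cuts toward peptides that fit class I grooves. Psmb8 (ENSMUSG00000024338, chr17:34197721-34201454, plus strand) had 20.6, 14.03, 33.1 and 15.6 CPM in Dp16 against 10.9, 14.4, 11.6 and 10.4 CPM in WT. Dp16 library 2 was below WT library 2, and otherwise the groups were apart. The log2 fold change of Psmb8 was 0.81 (SE 0.252, edgeR adjusted p = 0.111). It was 0.49 without the 3 libraries (adjusted p = 0.389). Psmb9 (ENSMUSG00000096727, chr17:34181987-34187764, minus strand) had 6.84, 5.03, 11.2 and 6.22 CPM in Dp16 against 4.18, 3.78, 4.61 and 3.02 CPM in WT. All Dp16 libraries were above all WT libraries. Its log2 fold change was 0.91 (SE 0.244, edgeR adjusted p = 0.0875). It was 0.51 without the 3 libraries (adjusted p = 0.357). Exons of Tap1 and Psmb9 overlap by 212 bases on opposite strands, and exons of Psmb8 overlap those of the antisense gene Gm20496 by 498 bases. The library kit keeps strand, but the strand setting of the counting is not given in the sources used here, so reads of those bases cannot be assigned with certainty.

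Each immunoproteasome subunit was also set against the subunit it replaces, per kilobase of exon, in the same library. The ratio of Psmb8 to Psmb5 was 1.079, 0.507, 1.75 and 0.648 in Dp16 against 0.504, 0.391, 0.397 and 0.320 in WT. The lowest Dp16 ratio was just above the highest WT ratio, and the means differed by 1.16 on the log2 scale (two-sided exact permutation test, n = 4 each, p = 0.0286, 0.0429 adjusted over the 3 ratios). The ratio of Psmb9 to Psmb6 was 0.101, 0.054, 0.169 and 0.068 in Dp16 against 0.0528, 0.0307, 0.048 and 0.0287 in WT. Again the groups did not overlap, with a difference of 1.20 on the log2 scale (exact permutation p = 0.0286, adjusted 0.0429). For Psmb10, the third such subunit, which replaces Psmb7, the ratio was 0.282, 0.201, 0.406 and 0.236 in Dp16 against 0.212, 0.187, 0.243 and 0.181 in WT. Here the groups overlapped and the log2 difference was 0.41 (exact permutation p = 0.143, adjusted 0.143). In the 5 libraries without H2-Ea-ps reads, both Dp16 libraries were also above all 3 WT libraries in the ratios of Psmb8 and Psmb9. The smallest p that the 70 arrangements of 4 against 4 libraries allow is 0.0286. The replaced subunits and Psmb10 were named after their values were seen, so these p-values are a description and not a fresh test. No share over ratios of other genes was computed. Psmb5, Psmb6 and Psmb7 themselves had log2 fold changes of -0.42, -0.34 and -0.26, none called (edgeR adjusted p = 0.197, 0.222 and 0.287), so part of each difference in ratio lay in the denominator. A ratio shows unequal levels and not which subunits were assembled.

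**Figure D4:**
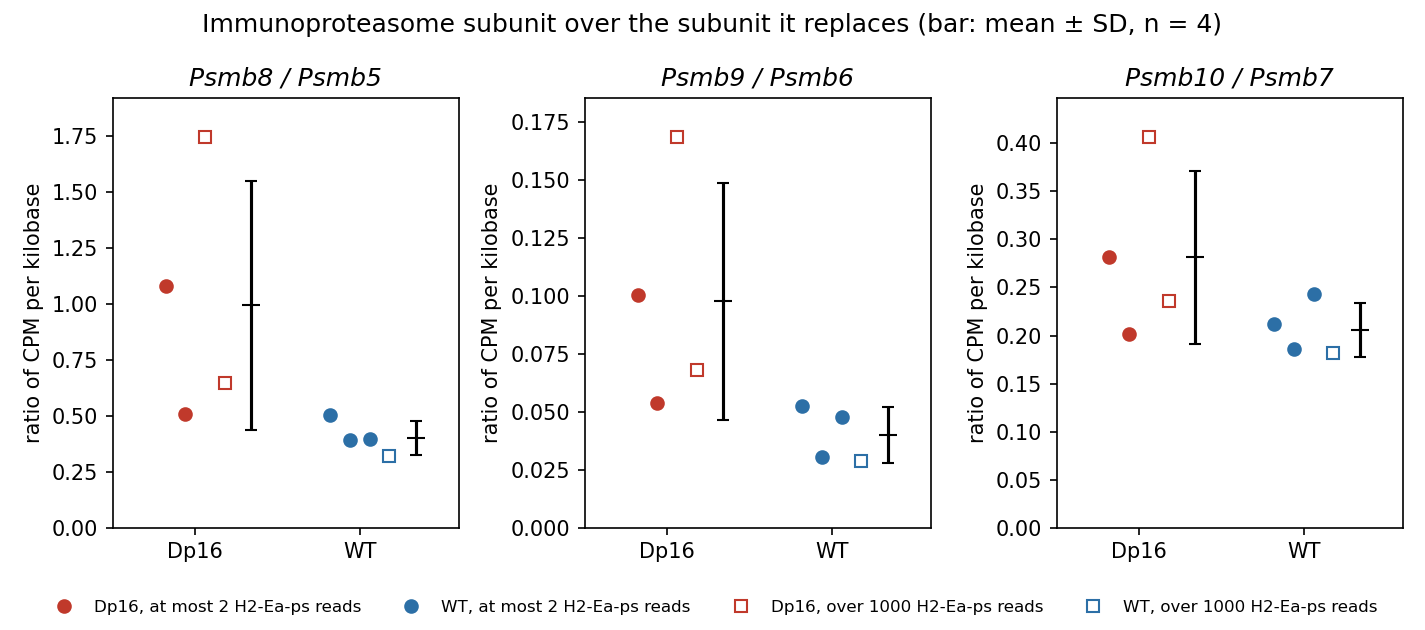
Ratio of each immunoproteasome subunit to the subunit it replaces, in CPM per kilobase, by library (points; Dp16 left of WT; bars mean ± SD, n = 4). The Dp16 ratios of Psmb8 to Psmb5 span 0.507 to 1.75 and lie above the WT range of 0.320 to 0.504, and those of Psmb10 to Psmb7 overlap the WT range.

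Nlrc5 encodes the class I transactivator, a protein without DNA-binding of its own that joins factors bound at class I, B2m, Tap1 and Psmb9 promoters. Nlrc5 (ENSMUSG00000074151, chr8:94434356-94527272, plus strand) had 24.4, 18.2, 37.7 and 21.2 CPM in Dp16 against 17.6, 17.9, 17.0 and 9.36 CPM in WT. Dp16 library 2 was only just above WT library 2, and WT library 4 stood far below the other WT libraries. Its log2 fold change was 0.71 (SE 0.261, edgeR adjusted p = 0.149). It was 0.29 without the 3 libraries (SE 0.143, adjusted p = 0.458). That was the smallest of the 10 values without those libraries.

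Levels can be compared between genes only per length, and as CPM per kilobase of exon they spanned a wide range. B2m was highest, with 553 ± 136 in Dp16 and 347 ± 49.7 in WT (SD, n = 4 each, as for all levels here). H2-K1 followed with 160 ± 52.4 in Dp16 and 123 ± 33.9 in WT, then H2-D1 with 125 ± 25.6 in Dp16 and 92.3 ± 7.08 in WT, and the mean ± SD ranges of these neighbours overlapped. H2-T23 came next, with 22.7 ± 11.3 CPM per kilobase in Dp16 and 13.5 ± 2.94 in WT. The remaining members were low. H2-Q6 had 10.3 ± 4.43 CPM per kilobase in Dp16 and 3.19 ± 0.41 in WT, and Psmb8 had 6.17 ± 2.55 in Dp16 and 3.51 ± 0.525 in WT. H2-Q7 had 5.34 ± 2.00 CPM per kilobase in Dp16 and 1.96 ± 0.821 in WT, Tap1 had 4.85 ± 2.00 in Dp16 and 2.72 ± 0.315 in WT, and Nlrc5 had 2.99 ± 1.01 in Dp16 and 1.82 ± 0.482 in WT. Psmb9 was last, with 2.00 ± 0.74 in Dp16 and 1.06 ± 0.185 in WT. In the order of WT levels, Psmb8, H2-Q6, Tap1 and H2-Q7 each overlapped the next in mean ± SD, the last of them Nlrc5, while Nlrc5 and Psmb9 did not overlap. In Dp16, H2-Q6 came before Psmb8 and H2-Q7 before Tap1, and every pair of neighbours from H2-T23 downward overlapped in mean ± SD.

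The members varied together between libraries of the same genotype. Dp16 library 3 was the highest of all 8 libraries in 9 members, all except H2-K1. Dp16 library 4 was the lowest Dp16 library in 7 members and Dp16 library 2 in the other 3, Psmb8, Psmb9 and Nlrc5. WT library 4 was the lowest WT library in all 10. The mean deviation of the members from their genotype mean, in log2 CPM, was 0.10, -0.13, 0.56 and -0.53 in Dp16 libraries 1 to 4 and 0.15, 0.17, 0.12 and -0.44 in WT libraries 1 to 4. Both library 4s, which hold H2-Ea-ps reads, were low, and Dp16 library 3, which holds them too, was high. Over the 8 libraries, the deviations of a single member correlated with that mean at an r of 0.666 for H2-K1 to 0.935 for H2-T23, a description in which each member is part of the mean. Among the 5 libraries without H2-Ea-ps reads, both Dp16 libraries were above all 3 WT libraries in 8 members, all except H2-T23 and Psmb8, as in 17.0% of all genes tested. Among the 3 libraries with them, both Dp16 libraries were above the WT library in all 10 members, as in 38.0% of all genes. The ratio of the means of Dp16 and WT ran over the members from 1.22 to 2.83 in the first set and from 1.52 to 5.64 in the second.

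Among 11734 other protein-coding genes compared, those whose deviations followed the mean of the members most closely over the 8 libraries were Txnip (r = 0.993), Slc43a3 (0.984), Poc1b (0.977), Snx33 (0.974), Cd300a (0.973) and Dzank1 (0.970). Txnip, a thioredoxin-binding protein that restrains glucose uptake, had 635, 546, 902 and 423 CPM in Dp16 against 465, 435, 430 and 280 CPM in WT. As in most members, Dp16 library 3 was its highest and WT library 4 its lowest library. Txnip was picked by its likeness to the members, so this shared pattern follows in part from the choice. Its log2 fold change was 0.64 (SE 0.239, edgeR adjusted p = 0.154), and 0.42 without the 3 libraries (0.325). None of the 6 was called.

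Most other heavy chains had fold changes of the same sign as the members. Of 20 further class I and class I-like chains, 16 passed the filter on low counts; 15 had a positive log2 fold change, none was called, 9 were higher at an unadjusted p below 0.05, and their median was 0.72. DESeq2 called 6 of them higher and limma-voom 1. Of the genes with an adjusted p, DESeq2 called 5.69% higher and limma-voom 1.28%. Over all genes, 12.7% were higher and 11.9% lower at an unadjusted p below 0.05. These shares apply to the lists below too. Without the 3 libraries 7.19% of all genes were higher at that p, and the share lower was not computed. Of these chains, 5 were higher at an unadjusted p below 0.05 without the 3 libraries, and the median was then 0.36. H2-Q4 had 16.3, 13.6, 34.1 and 18.4 CPM in Dp16 against 9.67, 8.15, 9.85 and 11.4 CPM in WT, with no overlap (log2 fold change 1.076, SE 0.265, edgeR adjusted p = 0.0776). H2-T24 had 10.9, 15.1, 25.5 and 12.1 CPM in Dp16 against 7.39, 9.26, 8.39 and 7.23 CPM in WT, also apart (log2 fold change 0.98, edgeR adjusted p = 0.0815). H2-T10, a chain recognised by some gamma delta T cells, had a log2 fold change of 1.16 (edgeR adjusted p = 0.111). It shares reads with near copies, since 71.9% of its 100-base substrings occur in no other gene, against 85.9% for H2-Q4 and 100% for H2-T24 and H2-M2. H2-M2, at 0.26 to 0.501 CPM in Dp16 and 0.0496 to 0.156 CPM in WT, had one of 1.96 (edgeR adjusted p = 0.0577) at this low level.

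Most of the other genes of peptide supply and loading had fold changes of the opposite sign. Of 19 such genes, 5 had a positive log2 fold change, none was called, and the median was -0.20. At an unadjusted p below 0.05, where 12.7% of all genes were higher and 11.9% lower, 2 of the 19 were higher and 2 lower. DESeq2 and limma-voom each called 1 of them higher. The median was -0.16 without the 3 libraries, with 1 gene higher at an unadjusted p below 0.05. Lnpep, an aminopeptidase that trims peptides for cross-presentation, had 111, 107, 135 and 101 CPM in Dp16 against 90.9, 76.2, 80.8 and 83.1 CPM in WT, with no overlap (log2 fold change 0.46, SE 0.102, edgeR adjusted p = 0.0695). Psme3, a proteasome activator of the nucleus, had a log2 fold change of -0.30 (edgeR adjusted p = 0.157), and Tpp2, a cytosolic peptidase, one of -0.20 (adjusted p = 0.181). The chaperones Calr, Canx, Pdia3 and Hspa5 varied by replicate number in both genotypes. Calr, for example, had 285, 977, 260 and 902 CPM in Dp16 against 474, 1509, 459 and 1117 CPM in WT, high in libraries 2 and 4 and low in libraries 1 and 3.

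None of the 14 subunits of the core proteasome found in all cells had a positive log2 fold change, against the 51.1% of all genes. Their median was -0.25, none was called, and 3 were lower at an unadjusted p below 0.05, where 11.9% of all genes were. DESeq2 and limma-voom called none, and without the 3 libraries the median was -0.23 and none was at an unadjusted p below 0.05. Psmb2 had 18.4, 23.03, 18.5 and 21.7 CPM in Dp16 against 21.0, 33.2, 24.7 and 28.9 CPM in WT with overlap (log2 fold change -0.40, SE 0.143, edgeR adjusted p = 0.144). Psma3 and Psmb3 had log2 fold changes of -0.35 and -0.40 (edgeR adjusted p = 0.146 and 0.214).

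The receptors that start interferon signalling are in part encoded in the duplicated segment. Ifnar2, a chain of the type I interferon receptor, had 20.5, 20.1, 19.9 and 19.4 CPM in Dp16 against 12.03, 12.3, 11.1 and 10.98 CPM in WT, with little spread and no overlap (log2 fold change 0.79, SE 0.072, edgeR adjusted p = 0.0122). Ifnar1 and Ifngr2 also rose, by 0.54 and 0.61 on the log2 scale (edgeR adjusted p = 0.0277 and 0.0265). Il10rb had a log2 fold change of 0.40 (edgeR adjusted p = 0.101). Of the 8 fits that left out 1 library, the Ifnar1 call was lost in 6 (without Dp16 library 1 or 4 or any WT library, edgeR adjusted p of 0.0502 to 0.102). The Ifngr2 call was lost in 5 (without Dp16 library 1 or 4 or WT library 1, 2 or 3, 0.0502 to 0.09995). The Ifnar2 call was lost in 2 (without Dp16 library 1, 0.0641, or WT library 2, 0.0506). No receptor gene was called without the 3 libraries, with log2 fold changes of 0.79 for Ifnar2, 0.53 for Ifnar1, 0.66 for Ifngr2 and 0.39 for Il10rb. With H2-Ea-ps reads as a covariate Ifnar2 was called (edgeR adjusted p = 0.0274), and Ifnar1 and Ifngr2 were not (0.0592 each). Ifnar2 spanned 19.4 to 20.5 CPM over the Dp16 libraries, where Tap1 spanned 18.03 to 42.0 CPM. Whether receptor levels relate to class I levels was not tested.

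Among 28 transcription factors and signalling genes that act on class I promoters, 18 had a positive log2 fold change, none was called, and the median was 0.05. At an unadjusted p below 0.05, where 12.7% of all genes were higher and 11.9% lower, 4 of the 28 were higher and 2 lower. DESeq2 called 4 higher, against 5.69% of the genes to which it gave an adjusted p. In the 5 libraries without H2-Ea-ps reads 4 were higher and 1 lower at an unadjusted p below 0.05, with a median of 0.03. Irf2, Irf9 and Irf1 are interferon regulatory factors. Irf2 had 19.7, 21.4, 23.97 and 22.3 CPM in Dp16 against 16.7, 17.0, 16.8 and 17.9 CPM in WT (log2 fold change 0.35, SE 0.078, edgeR adjusted p = 0.068), with no overlap. Irf9, part of the factor that type I interferon activates, had 33.0, 25.3, 37.7 and 23.2 CPM in Dp16 against 21.99, 18.98, 18.8 and 21.8 CPM in WT (log2 fold change 0.55, edgeR adjusted p = 0.0919). Irf1 had 20.8, 14.9, 24.9 and 15.5 CPM in Dp16 against 11.2, 14.1, 12.4 and 13.6 CPM in WT (log2 fold change 0.57, edgeR adjusted p = 0.103). In Irf2, Irf9 and Irf1 the groups did not overlap, and in each Dp16 library 3 was the highest. Rfx5, which binds the X box of class I promoters beside Nlrc5, had a log2 fold change of -0.12 (edgeR adjusted p = 0.379).

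Receptors through which T and natural killer cells read class I molecules were also examined. Of 18 genes, 16 passed the filter, all 16 had log2 fold changes above 0 (median 0.90), 9 were higher at an unadjusted p below 0.05, and 1 was called. That gene was Klrd1, which encodes CD94, the partner of NKG2 receptors in binding Qa-1. Klrd1 had 1.96, 1.82, 2.79 and 2.09 CPM in Dp16 against 0.936, 0.947, 0.625 and 0.789 CPM in WT (log2 fold change 1.39, SE 0.206, edgeR adjusted p = 0.0331). All Dp16 libraries were above all WT libraries, and without the 3 libraries the log2 fold change was 1.18 (adjusted p = 0.246). The Klrd1 call was lost on leaving out any 1 library except Dp16 library 2, with edgeR adjusted p of 0.0502 to 0.09995. Klrk1, which encodes the activating receptor NKG2D, had 4.88, 3.03, 5.30 and 3.42 CPM in Dp16 against 1.48, 2.75, 1.84 and 1.76 CPM in WT (log2 fold change 1.09, edgeR adjusted p = 0.0695; 0.97 without the 3 libraries). Cd8b1, the beta chain of the CD8 coreceptor, had 0.640, 0.191, 2.65 and 0.537 CPM in Dp16 against 0.211, 0.135, 0.0595 and 0.113 CPM in WT (log2 fold change 2.95, SE 0.780, edgeR adjusted p = 0.0856). Dp16 library 2 lay within the WT range, and Dp16 library 3 was far above all others. Without the 3 libraries the log2 fold change of Cd8b1 was 1.61 (SE 0.691, adjusted p = 0.403). Over the list, 14 of 16 receptor genes then had log2 fold changes above 0 (median 0.80) and 5 were higher at an unadjusted p below 0.05.

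The class II route, which presents peptides to CD4 T cells, had a positive log2 fold change in all 12 genes, with a median of 0.65, 9 higher at an unadjusted p below 0.05 and none called. H2-Ea-ps was not in this list. DESeq2 called 5 of the 12 higher and limma-voom 1. Only 2 of the 12 were higher at an unadjusted p below 0.05 without the 3 libraries, where the median was 0.45. Ciita, the class II counterpart of Nlrc5, had 11.9, 5.62, 10.2 and 9.23 CPM in Dp16 against 4.29, 4.83, 4.16 and 3.13 CPM in WT, with no overlap (log2 fold change 1.17, SE 0.225, edgeR adjusted p = 0.0553). H2-Ab1, H2-Eb1 and H2-Ob had log2 fold changes of 0.68, 0.65 and 1.65 (edgeR adjusted p = 0.0781, 0.0833 and 0.0742). Unlike most class I members, H2-Ab1 was highest in Dp16 library 4, at 68.2 CPM.

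Lymphocyte markers had fold changes of the same sign as the members, and larger ones in the median. Of 23 markers, 22 passed the filter, 20 had log2 fold changes above 0 (median 1.84), and 18 were higher at an unadjusted p below 0.05. No lymphocyte marker was called by edgeR, while DESeq2 called 18 and limma-voom 3. No marker was at 0 in every library. In 7 of the 22 tested markers every Dp16 library was above every WT library, against 7.11% of all genes. Summed over the list, the markers had 103, 54.2, 143 and 85.0 CPM in Dp16 against 44.8, 46.4, 46.2 and 35.7 CPM in WT. In this sum every Dp16 library was above every WT library. Ptprc, the leukocyte antigen CD45, made up most of that sum, with 67.7, 40.0, 88.4 and 59.0 CPM in Dp16 against 32.1, 32.7, 33.5 and 26.5 CPM in WT (log2 fold change 1.03, edgeR adjusted p = 0.0589). Cd79b, Cd4 and Cd3g, markers of B cells, helper T cells and T cells, had log2 fold changes of 1.47, 1.71 and 2.22 (edgeR adjusted p = 0.0589, 0.0609 and 0.0609). Without the 3 libraries the median of the list was 1.16, and 8 markers were higher and 1 lower at an unadjusted p below 0.05. Dp16 library 3 was highest in both the marker sum and 9 members. The order was not the same throughout, since Dp16 library 4 exceeded Dp16 library 2 in the sum and was below it in 7 members. In a whole gland, more cells of a type and more RNA per cell cannot be told apart, and the part of lymphocytes in the class I levels was not tested.

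Myeloid and endothelial markers had smaller median fold changes than lymphocyte markers. Of 19 macrophage, dendritic cell and granulocyte markers, 18 passed the filter, 17 had log2 fold changes above 0 (median 0.28), 4 were higher at an unadjusted p below 0.05 and none was called; DESeq2 called 3. Their sum was 318 to 580 CPM in Dp16 and 335 to 395 CPM in WT, with Dp16 library 3 the highest, and without the 3 libraries the median was -0.12, with 4 markers lower and none higher at an unadjusted p below 0.05. Clec9a and Flt3, markers of dendritic cells, had log2 fold changes of 1.29 and 1.05 (edgeR adjusted p = 0.0999 and 0.122). Mpeg1 and Itgam had 0.73 and 1.07 (edgeR adjusted p = 0.134 and 0.199). These 4 are named as those of smallest p in the list. Of 10 endothelial markers, 9 had log2 fold changes above 0 (median 0.34), 4 were higher at an unadjusted p below 0.05 and none was called; DESeq2 called 2. The endothelial median was 0.26 without the 3 libraries, with 1 marker higher at an unadjusted p below 0.05. Their sum was 99.8 to 114 CPM in Dp16 and 81.9 to 94.9 CPM in WT, without overlap. Flt1, Tek, Cdh5 and Pecam1 had log2 fold changes of 0.36, 0.40, 0.40 and 0.67 (edgeR adjusted p = 0.0815, 0.110, 0.180 and 0.145). No marker of these lists was at 0 in every library, and their part in the class I levels was not tested.

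Acinar markers mostly had fold changes of the opposite sign to the members. Of 11 acinar markers, 10 passed the filter and 1 had a log2 fold change above 0 (median -0.75). At an unadjusted p below 0.05, 2 were lower, and none was called, while DESeq2 called those 2 lower. The share of all genes that DESeq2 called lower was not computed. Summed, the acinar markers had 233967 to 318709 CPM in Dp16 and 265141 to 373846 CPM in WT, with overlap. Aqp5, the water channel of acinar cells, had 84.0, 61.1, 53.9 and 67.7 CPM in Dp16 against 115, 102, 108 and 97.0 CPM in WT (log2 fold change -0.66, SE 0.131, edgeR adjusted p = 0.0589). Bhlha15, a transcription factor of mature secretory cells, had 157, 110, 113 and 117 CPM in Dp16 against 217, 226, 275 and 167 CPM in WT (log2 fold change -0.83, SE 0.166, edgeR adjusted p = 0.0589). In both genes every Dp16 library was below every WT library. Dcpp1 and Dcpp2, which encode secreted proteins, had log2 fold changes of -2.50 and -3.70 (edgeR adjusted p = 0.275 and 0.272), with WT library 3 at 22.3 and 70.8 CPM and no other library above 4.75 CPM. Without WT library 3 these were 1.003 and 1.76. In the 5 libraries without H2-Ea-ps reads, 5 acinar markers were lower at an unadjusted p below 0.05 and the list had a median of -0.84. Of 13 duct markers, 6 had log2 fold changes above 0, the median was near 0, and 1 was called. That gene was Klk1, a kallikrein secreted by duct cells, which fell to 599, 680, 756 and 683 CPM in Dp16 against 1109, 1058, 1076 and 1178 CPM in WT (log2 fold change -0.70, SE 0.106, edgeR adjusted p = 0.0358). The Klk1 call was lost in 6 of the 8 fits that left out 1 library, with edgeR adjusted p of 0.0536 to 0.114 (without Dp16 library 1 or 4 or any WT library). It was also lost without the 3 libraries (log2 fold change -0.75, adjusted p = 0.204). No acinar or duct marker was at 0 in every library, and their part in the class I levels was not tested. The plot of gene lists shows 8 lists side by side, the members among them. The triplicated receptors and the myeloid, endothelial, acinar and duct markers are not in it.

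**Figure D5:**
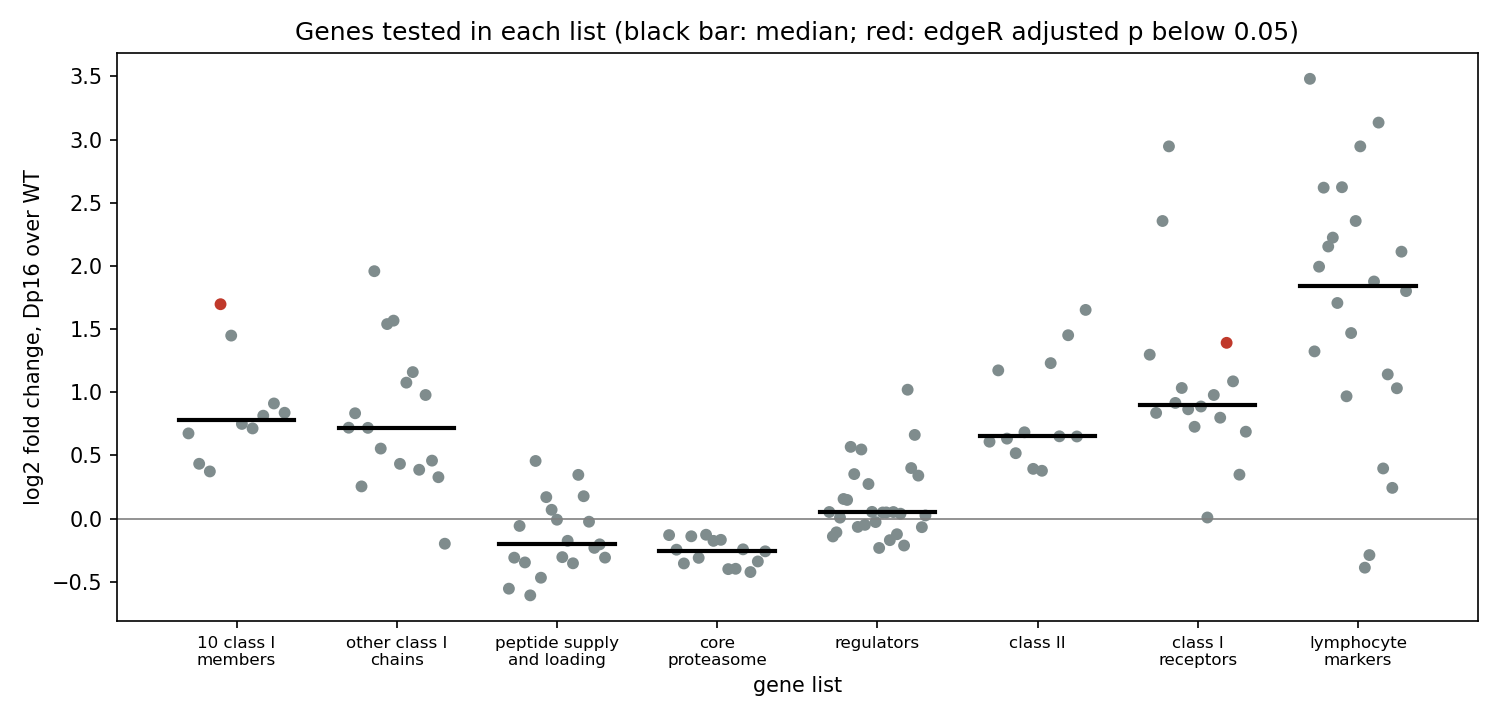
Log2 fold change, Dp16 over WT (edgeR), of each gene tested in 8 lists (points), with the list median (bar); red points passed an adjusted p of 0.05. The medians were 0.78 for the members, 0.72 for other class I chains, -0.20 for peptide supply and loading, -0.25 for the core proteasome, 0.05 for regulators, 0.65 for class II, 0.90 for class I receptors and 1.84 for lymphocyte markers.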

How the data were processed

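Read counts per gene, 1 table per library, were deposited by the authors as whole numbers with no normalization. STAR, HTSeq, FastQC, DESeq2 and GRCm38 are named, without versions, in the submitters' processing notes; annotation release and strand setting: not given in the sources used here. Per the labels, total RNA was isolated by column and made into stranded, ribosome-depleted libraries. The 5 rows naming no gene (58.1% to 65.4% of reads, including 35.8% to 43.9% aligned more than once) were left out. Coordinates came from GENCODE M21, which matched 54723 genes.

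Counts were tested in R 4.3.3 with edgeR 4.0.16 (default filter, TMM, quasi-likelihood F-test, Benjamini-Hochberg over 19358 genes, two-sided, adjusted p below 0.05). Alternatives were DESeq2 1.42.0, limma-voom with quality weights (limma 3.58.1), other size factors and filters, an adjusted p below 0.10, a replicate block, 1 surrogate variable (sva 3.50.0) and leaving out each library. Omitting the 3 libraries with at least 100 H2-Ea-ps reads, and using those reads as a covariate, were chosen after seeing the data. The members and lists were chosen with earlier results of these data known. Text names every member and triplicated receptor, each called gene of the other lists or else 4 by smallest p (1 regulator is not reported here), and 6 genes most like the members (11734 compared, mean log2 CPM of at least 0). Psmb5, Psmb6, Psmb7, Psmb10, Rfx5, Mucl2, the 4 chaperones, and the H2 genes of the 3 libraries were named after their values were seen. The edgeR, DESeq2 and limma-voom fits of genotype alone were tested on simulated data, and the other alternatives were not.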

Additional observations from a re-analysis of the deposited data

Results flagged for a closer look

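Each group of 4 libraries was examined for a library far from the other 3, in 15 genes and both genotypes, so 30 groups; 3 stood out by Dixon's criterion at the 95% level, where chance gives about 1 in 20 groups. H2-Q7 in Dp16 library 4 had 10.13 CPM, below the other Dp16 libraries at 25.9 to 28.8 CPM (gap over range 0.845). Nlrc5 in WT library 4 had 9.36 CPM, below the other WT libraries at 17.0 to 17.9 CPM (0.890). H2-Ea-ps in WT library 4 had 10.4 CPM, where the other WT libraries had 0 (1.0). Both libraries named here are among the 3 with H2-Ea-ps reads. Those 3 were defined by such reads, so the H2-Ea-ps flag is not separate from that set.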

How the results depend on the processing

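Over 1093 gene and setting combinations for the 58 named genes, 942 kept direction and side of the threshold, 42 lost their call, 107 gained one and 2 reversed (Dcpp1 and Dcpp2 without WT library 3; with 1 library left out they ranged from -3.41 to 1.003 and from -5.99 to 1.76). No setting took a member to a negative fold change. H2-Q6 ranged from 1.38 to 1.88 on the log2 scale over its 18 refits. Counts of calls depended on the setting, and the cause was not tested. Over all genes the 121 calls became 1987 with DESeq2, 223 with no filter, 396 with limma-voom, 436 with a surrogate variable, 1308 at an adjusted p below 0.10, 0 without the 3 libraries with H2-Ea-ps reads (2 against 3 libraries, 7.19% of genes higher at an unadjusted p below 0.05), 7 with those reads as a covariate, and 0 to 446 when 1 library was left out. The 1 member called became 6 with DESeq2, 2 with a surrogate variable (H2-Q6 and Psmb9), 4 at 0.10, 0 without the 3 libraries and 0 with the covariate (9 at an unadjusted p below 0.05), and 0 to 1 with a library left out. Apart from the triplicated genes, edgeR called 1 class I receptor, 1 duct marker (Klk1) and no gene of the other lists. The counts that follow leave out the acinar and duct lists. With DESeq2 the calls were 6 other chains, 1 loading gene, 4 regulators, 5 class II genes, 9 class I receptors, 18 lymphocyte, 3 myeloid and 2 endothelial markers. With limma-voom they were 1 other chain, 1 loading gene, 1 class II gene, 2 receptors and 3 lymphocyte markers. At 0.10 they were 3 other chains, 1 loading gene, 2 regulators, 5 class II genes, 4 receptors, 10 lymphocyte, 1 myeloid and 1 endothelial marker. With a surrogate variable they were 1 loading gene, 1 class II gene, 1 class I receptor and 4 lymphocyte markers. With no filter they were 1 class II gene, 1 class I receptor and 5 lymphocyte markers. With a CPM of at least 1 they were 1 class II gene and 1 class I receptor. No class I receptor was called without the 3 libraries (0) or with the covariate (0). With a library left out, other chains ranged over 0 to 2, class II genes over 0 to 4, receptors over 0 to 3, lymphocyte markers over 0 to 13 and myeloid markers over 0 to 2. The sum of H2-Q6 and H2-Q7 (log2 fold change 1.56, edgeR adjusted p = 0.0589) passed with DESeq2 (1.55), no filter (1.56), limma-voom (1.53), a surrogate variable (1.40), at 0.10 (1.56) and as all 6 H2-Q genes (1.26).

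Same-numbered libraries of both genotypes correlated in their deviations at an r of 0.191, 0.129, 0.078 and 0.105. Dp16 libraries 2 and 3 did not correlate best with their own number, so the block by replicate number was not taken as the design. Across genotypes, libraries 1 and 3 correlated with libraries 1 and 3 at an r of 0.078 to 0.191. Libraries 2 and 4 correlated with libraries 2 and 4 at 0.075 to 0.131. Every other pair was negative, at -0.225 to -0.009. A block of libraries 1 and 3 against 2 and 4 was not fitted. WT library 4 is numbered by its title, and its library name carries another number. With the replicate block, edgeR called 776 genes, among them 4 members (H2-Q6, H2-Q7, B2m and Psmb9, the last 3 at an adjusted p of 0.0314, 0.0479 and 0.0467). It also called 4 other chains, 2 loading genes, 3 core proteasome genes, 1 class II gene, 1 class I receptor and 5 lymphocyte markers. There the sum of H2-Q6 and H2-Q7 had a log2 fold change of 1.52. The share of substrings unique to H2-Q6 was 65.0% at 50 bases, 78.9% at 75 and 94.0% at 150, and to H2-Q7 73.5%, 83.0% and 94.1%. Depth was not limiting for the members, the least counted of which had 348 to 1210 reads in a library.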
